A study of Homo sapiens with 18 samples.

Results

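One RNA library of UBR7 knockout line KO2 was compared with 1 RNA library of parental HEK293T cells. The parental library is the only one of its kind whose description carries no date, and the description of the KO2 library carries none either. They are 2 of the 18 samples of the series and 2 of its 6 RNA samples. Of the 14177 genes with a row in the RNA table, the 13288 above 1 CPM (reads of a gene scaled to a fixed library total by the authors) in either library (93.7%) were kept and described. HEK293T is an established line of human embryonic kidney cells that carries the large T antigen of SV40. The knockout was made with CRISPR-Cas9, and the labels do not say whether KO2 is 1 clone. The parental cells are HEK293T with an unedited genotype, and both were grown in DMEM with fetal bovine serum. Beside the RNA stand 4 ATAC-seq libraries, 2 labelled UBR7KO and 2 parental, and 1 ChIP-seq library for GFP from HEK293T with GFP fused to UBR7 at its endogenous gene. ATAC-seq marks chromatin that a transposase can enter. The descriptions of the UBR7KO ATAC libraries share a code with the KO2 RNA library, so their line was inferred to be KO2 and is not stated.

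UBR7 carries a UBR box and a PHD finger and is named in the title of the series as a chaperone of histone H3. Histone chaperones hold histones outside the nucleosome: NASP keeps a soluble pool of H3, ASF1 and CAF-1 hand H3 and H4 to newly replicated DNA, and HIRA places the variant H3.3 outside replication. HEK293T cells express neurofilaments and several neuronal and early kidney genes beside vimentin, N-cadherin and keratins. SNAI2 (Slug) is a zinc finger repressor that binds E-box letters in promoters and is known for turning down epithelial genes in cells that take on mesenchymal form.

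With 1 library a side no difference has a replicate check, and no p-value is given. The spread between cultures is not measured by this pair. The read totals behind the CPM values, recovered from their spacing, were 29811908 for the KO2 library and 29141652 for the parental library. So 1 read is worth 0.0335 and 0.0343 CPM. These are the totals used for scaling, and the number of reads sequenced was not read from them. Intervals below are exact 95% Clopper-Pearson intervals of the ratio of CPM and cover counting error only. Mitochondrial rRNA took 26.3% of the KO2 total and 24.7% of the parental total. Because the knockout line, the culture and the preparation go together here, they cannot be told apart.

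The targeted gene was at the same level on both sides. UBR7 (chr14:93673401-93695561, plus strand, GRCh37-type coordinates as in all gene positions below) was at 64.5 CPM in the library labelled KO2 and at 62.2 CPM in the parental library. The ratio was 1.04 (interval 0.971 to 1.11), and the log2(CPM + 1) difference was 0.05. An edit that stops the protein can leave the transcript in place, so the RNA level does not check the label. The RNA does not tell the 2 libraries apart at this gene, and every direction below is that of the library labelled KO2. The annotated span of UBR7 overlaps that of C14orf142 on the other strand. How reads of the shared part were counted is unknown, since the use of strand in counting is not given in the sources used here. Its gene start had an ATAC peak in all 4 libraries, with a −log10 q of 2.05 and 3.44 in UBR7KO and 0.874 and 1.98 in parental cells.

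Most genes differed little. On the log2(CPM + 1) scale, which understates the fold of low genes, the median difference of KO2 minus parental was −0.02 and the SD over genes was 0.38. The 5th and 95th percentiles were −0.58 and 0.54. The levels of 73.7% of kept genes were within 1.25-fold of each other on that scale and those of 91.1% within 1.5-fold. A difference of at least 1 in size is called past 2-fold. It was met by 129 genes higher in KO2 (0.971% of kept genes) and 177 genes lower (1.33%). The counting interval of the ratio left out 1 for each of these 306 genes. With this many reads the threshold itself ensures that, so it is no further check. At 4-fold on the same scale 10 genes were higher and 34 lower. Protein-coding genes made up 122 of the 129 and 164 of the 177, and lincRNA genes 1 and 6. At the filter itself, GNGT1 was kept at 1.01 CPM in KO2 and 0.446 CPM in the parental library, and RASGRP2 was left out at 0.872 and 0.995 CPM.

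**Figure D1:**
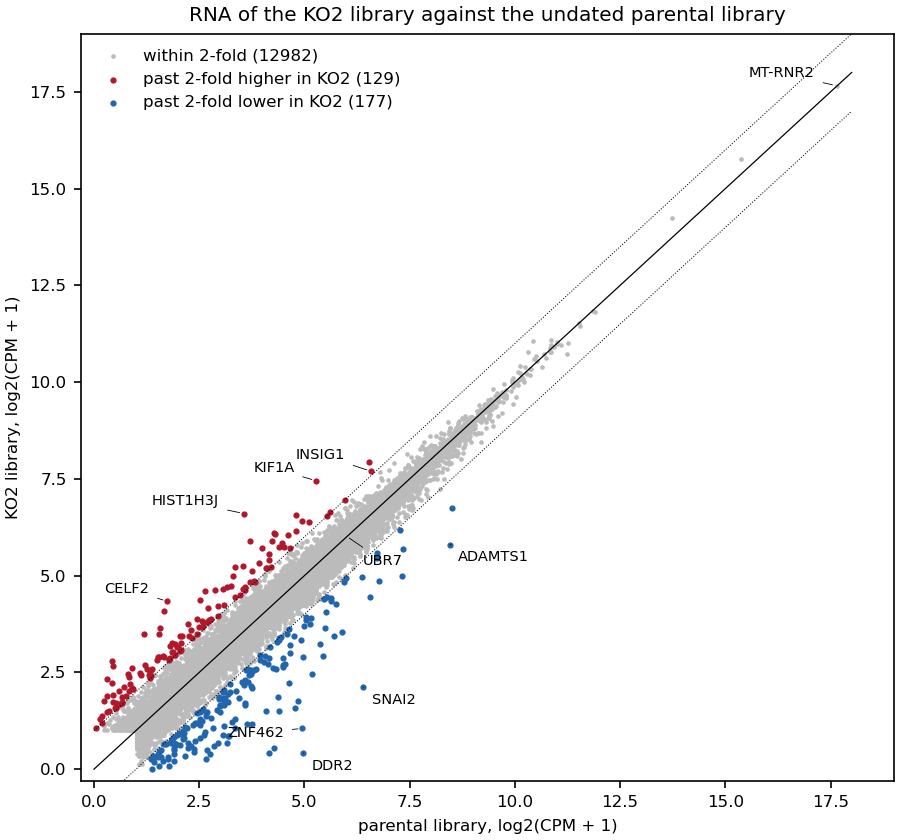
Each point is 1 of the 13288 kept genes, with its log2(CPM + 1) in the parental library on the x axis and in the KO2 library on the y axis; the solid line marks equal levels and the dotted lines 2-fold. UBR7 lies on the line of equal levels, 129 genes lie above the upper dotted line and 177 below the lower one, and DDR2 and SNAI2 lie farthest below.

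The largest differences of all were lower in KO2 and include genes with few reads there that the parental library expressed. Of the 15 largest to this side, 5 belong to the extracellular matrix list (SPARC, TNC, COL5A2, ADAMTS1 and COL12A1). DDR2, a receptor tyrosine kinase for fibrillar collagen (chr1:162601163-162750237), was at 0.335 CPM in KO2 (10 reads) and at 30.5 CPM in the parental library (888 reads), 90.8-fold lower (interval 49.2 to 190). SNAI2, on chromosome 8, was at 3.35 CPM in KO2 and 83.3 CPM in the parental library, 24.8-fold lower (20.3 to 30.6). The secreted collagen-binding glycoprotein SPARC (chr5:151040657-151066726) was at 0.335 and 16.8 CPM, 50.1-fold lower (27.0 to 105). TNC, the matrix protein tenascin C, was at 0.470 and 18.4 CPM, 39.2-fold lower (23.1 to 72.1). The intervals of these 4 ratios, from 20.3 up, lie far from 1, which speaks to counting and not to the spread between cultures.

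Of the collagen genes, the following 3 had the lowest differences, and COL2A1, COL4A3 and COL4A4 were past 2-fold higher. The fibrillar collagen chain COL5A2 was at 1.84 CPM in KO2 and 19.9 CPM in the parental library, a log2 difference of −2.88. Its neighbour on chromosome 2, COL3A1, was at 0.805 and 8.06 CPM, and COL12A1, which decorates fibrils, at 0.604 and 8.00 CPM. ADAMTS1, a secreted protease that cuts proteoglycans, had the highest level among the 15 genes that were lowest in KO2, at 54.8 CPM in KO2 and 350 CPM in the parental library, 6.39-fold lower (6.07 to 6.74). SULF1, which trims sulfate from heparan sulfate chains, was at 2.42 and 27.8 CPM.

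The other genes among the 15 largest differences to the lower side come from several families. The zinc finger gene ZNF462 was at 1.07 CPM in KO2 and 29.9 CPM in the parental library, 27.8-fold lower (19.6 to 40.9). BEX1, a small X-linked protein of the nervous system, was at 1.98 and 26.5 CPM, while its relative BEX2 was at 85.3 and 53.4 CPM, in the other direction. TPM2, a tropomyosin of contractile filaments, was at 6.54 and 42.2 CPM. FHAD1 was at 1.81 and 16.1 CPM. RP6-99M1.2 and RP11-438N16.1, genes with clone-based names, were at 1.24 and 12.6 CPM and at 2.62 and 19.6 CPM. The histone gene HIST1H2BG was at 4.46 and 35.1 CPM; the gene next to it on the other strand, HIST1H2AE, was at 11.6 and 43.8 CPM. Histone genes of one kind have near-identical copies, so how the authors' counting split their reads is uncertain.

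The 15 largest differences to the higher side were smaller, with neuronal, zinc finger and signalling genes among them. KIF1A, a kinesin that carries synaptic vesicle precursors along axons (chr2:241653181-241759725, minus strand), was at 174 CPM in KO2 and 37.6 CPM in the parental library, 4.64-fold higher (interval 4.34 to 4.95). CELF2, an RNA-binding regulator of splicing (chr10:11047259-11378666), was at 19.3 and 2.33 CPM, 8.25-fold higher (6.41 to 10.8). CRMP1, a cytosolic protein of growth cones, was at 10.3 and 1.27 CPM, 8.14-fold higher (5.77 to 11.8). It overlaps EVC on the other strand. LYPD1, a membrane-anchored protein that acts on nicotinic receptors, was at 16.1 and 2.16 CPM, 7.43-fold higher (5.71 to 9.83).

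DUSP2, a phosphatase that switches off MAP kinases, was at 5.94 CPM in KO2 and 0.343 CPM in the parental library, which is 177 reads against 10 and a ratio of 17.3 (9.19 to 36.7). A pair of Krüppel-type zinc finger genes stood among the 15. ZNF22 was at 58.3 and 12.1 CPM, 4.80-fold higher (4.28 to 5.40), and ZNF700 at 3.99 and 0.240 CPM, 16.6-fold higher (7.82 to 42.2). ZNF22 overlaps C10orf25 on the other strand. The forkhead factor FOXB1 was at 11.5 and 1.96 CPM. The junction protein PLEKHA7 was at 23.1 and 5.22 CPM, and the plakin EPPK1 at 19.5 and 4.70 CPM; both belong to epithelial cells. DDIT4, a stress-responsive inhibitor of mTORC1, was at 67.7 and 18.3 CPM, 3.69-fold higher (3.35 to 4.07). DCDC2 was at 5.33 and 0.377 CPM, NAPRT1, an enzyme of NAD synthesis, at 10.3 and 1.92 CPM, and WSCD1 at 36.6 and 9.27 CPM. The largest difference of all to the higher side, HIST1H3J at 96.4 and 10.8 CPM, is uncertain: its annotated span holds HIST1H2AM on the same strand, which was at 46.1 and 36.4 CPM.

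**Figure D2:**
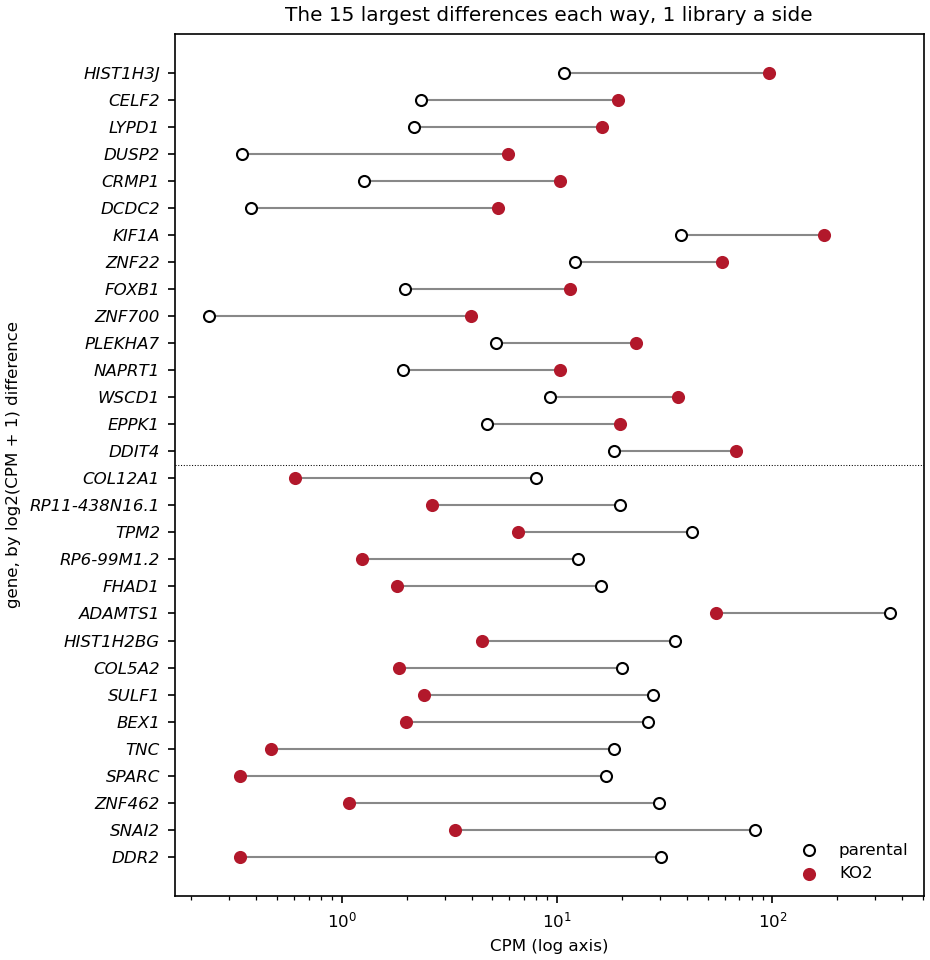
CPM on a log axis in the KO2 library (filled) and the parental library (open) for the 15 genes with the largest log2(CPM + 1) difference each way, 1 library a side and so no error bars. Above the dotted line all genes were higher in KO2, from DDIT4 at 67.7 against 18.3 CPM to HIST1H3J; below it all were lower, down to DDR2 at 0.335 against 30.5 CPM.

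Of the 15 genes highest in KO2, 4 had an ATAC peak at the start in both UBR7KO libraries and in neither parental library: LYPD1, KIF1A, ZNF22 and ZNF700. Their promoters are shown because RNA and open chromatin can be set side by side at these starts. Each is the 250 bases before the RefSeq gene start, from RefSeq on GRCh38.p14, and its letters were not compared with the peaks, whose coordinates are of GRCh37 type. Capitals mark CAGGTG or its reverse complement CACCTG, the E-box letters that the SNAI2 protein is known to bind. In LYPD1 (chr2:132671527-132671776, minus strand) the first base of the only match lies 105 bases before the start. KIF1A (chr2:240821404-240821653, minus strand), ZNF22 (chr10:45000673-45000922, plus strand) and ZNF700 (chr19:11924857-11925106, plus strand) hold no match in this window.
LYPD1: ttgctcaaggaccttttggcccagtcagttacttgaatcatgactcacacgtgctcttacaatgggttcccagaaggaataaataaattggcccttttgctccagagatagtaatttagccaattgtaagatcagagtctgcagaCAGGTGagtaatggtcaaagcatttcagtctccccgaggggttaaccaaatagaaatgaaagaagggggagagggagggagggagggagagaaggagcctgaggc
KIF1A: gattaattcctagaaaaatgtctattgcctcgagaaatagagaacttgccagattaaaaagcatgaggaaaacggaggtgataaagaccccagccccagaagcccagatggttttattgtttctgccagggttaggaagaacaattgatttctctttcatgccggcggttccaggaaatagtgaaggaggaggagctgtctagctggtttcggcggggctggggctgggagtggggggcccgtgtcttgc
ZNF22: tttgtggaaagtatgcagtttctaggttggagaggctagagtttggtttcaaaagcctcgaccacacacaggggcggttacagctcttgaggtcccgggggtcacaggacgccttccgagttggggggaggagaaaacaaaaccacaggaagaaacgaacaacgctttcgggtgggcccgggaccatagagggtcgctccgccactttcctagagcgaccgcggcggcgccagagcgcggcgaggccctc
ZNF700: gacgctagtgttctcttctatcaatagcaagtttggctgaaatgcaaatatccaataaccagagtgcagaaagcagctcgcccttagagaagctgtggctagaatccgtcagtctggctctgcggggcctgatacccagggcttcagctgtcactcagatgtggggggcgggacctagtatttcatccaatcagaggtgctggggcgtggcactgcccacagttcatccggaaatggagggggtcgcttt
Of the 35116 promoters RefSeq gives in that set, 6143 (17.5%), read over the same 250 bases on both strands, hold CAGGTG or CACCTG, so 1 match among 4 is no more than a description of the letters. GC made up 46.8% of the LYPD1 window, 49.6% in KIF1A, 59.6% in ZNF22 and 53.6% in ZNF700.

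Among 40 gene lists, the extracellular matrix list held the most genes past 2-fold lower. Of its 44 kept members 10 were past 2-fold lower (22.7%, against 1.33% of all kept genes) and 1 was past 2-fold higher, and 29 were lower by any amount. Its median difference was −0.35, and its summed level was 1427 CPM in KO2 and 1970 CPM in the parental library. Beside the genes above, PXDN, which crosslinks collagen IV, was at 19.4 and 48.7 CPM, the gelatinase MMP2 at 1.78 and 5.39 CPM, EFEMP1 at 1.51 and 5.83 CPM and the proteoglycan LUM at 0.570 and 2.20 CPM. Members within 2-fold were on both sides: LAMC1 was at 178 and 282 CPM, NID1 at 159 and 200 CPM, LAMA3 at 15.7 and 9.85 CPM and COL4A2 at 85.2 and 72.9 CPM. The only kept fibrillar collagen of the list that was higher was COL2A1, the collagen of cartilage, at 66.6 CPM in KO2 and 18.6 CPM in the parental library. The members of this paragraph, like others given below only as list members, were picked after their values were seen.

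Fibroblasts express many of these matrix genes, so the fibroblast list is given beside them. Of its 11 markers 5 were kept, with a median of −0.79, and 2 of the 5 were past 2-fold lower (40%, against 1.33%). COL3A1 and LUM, past 2-fold lower, are also matrix members; COL1A1 was at 5.97 and 11 CPM, PDGFRA at 0.604 and 1.48 CPM, and ACTA2 at 4.86 and 2.64 CPM. The summed level of the 5 was 12.8 CPM in KO2 and 25.4 CPM in the parental library, and the part of such cells in the matrix differences was not tested. The other 6 markers, COL1A2, DCN, PDGFRB, THY1, FAP and POSTN, have no row in the table and were not analysed here. Fewer cells of one kind and less RNA per cell cannot be told apart in bulk RNA. Of the 9 hepatocyte markers 0 were kept, of the 10 blood markers 2, and of the 12 keratinocyte or cervical markers only CDKN2A, at 183 CPM in KO2 and 112 CPM in the parental library.

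Junction and epithelial-mesenchymal genes did not move as a block. Of 23 kept members 12 were higher and 11 lower, with a median of 0.00. SNAI2 was the only member past 2-fold lower (4.35%, against 1.33% of all kept genes). Past 2-fold higher (8.70%, against 0.971%) were MARVELD2, a protein of tricellular tight junctions at 24.2 and 7.34 CPM, and ESRP2, an epithelial splicing regulator at 27.4 and 12.1 CPM. The other mesenchymal factors were closer together. ZEB1 was at 47.9 CPM in KO2 and 40.2 CPM in the parental library, ZEB2 at 26.2 and 33.6 CPM and TWIST1 at 9.53 and 12.4 CPM. The cadherins did not switch: CDH2 (N-cadherin) was at 107 and 60.9 CPM and CDH1 (E-cadherin) at 5.30 and 4.19 CPM, both higher in KO2 and within 2-fold. Vimentin, VIM, was at 587 and 821 CPM.

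Markers of the HEK293 line were present on both sides. Of 19, 16 were kept, with 5 higher and 11 lower in KO2. Past 2-fold were 3 lower (18.75%, against 1.33% of all kept genes) and 1 higher (6.25%, against 0.971%). EYA1 was at 18.4 and 19.6 CPM, LIN28B at 139 and 148 CPM and GATA2 at 30.3 and 31.5 CPM, with log2 differences between −0.10 and −0.05. Farther apart but within 2-fold were PRAME, at 27.4 and 52.5 CPM, and CDH2, given above and higher in KO2. PAX2 and SALL4 were under 1 CPM in both libraries. The members past 2-fold were all filament genes. The neurofilament chains NEFL and NEFM were at 42.6 and 105 CPM and at 27.7 and 60.4 CPM, lower in KO2, while the third chain of such filaments, INA (alpha-internexin), was at 39.1 and 14.2 CPM, higher in KO2. KRT8 was at 5.43 and 21.5 CPM and its partner KRT18 at 43.1 and 47.9 CPM; their annotated spans overlap on opposite strands. Of 14 kept members of the intermediate filament list 3 were past 2-fold lower (21.4%, against 1.33%) and 1 higher (7.14%, against 0.971%). The median of that list was −0.40.

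Neuronal and neuroendocrine genes had members past 2-fold in both directions. Of 27 kept members 5 were past 2-fold higher (18.5%, against 0.971%) and 6 past 2-fold lower (22.2%, against 1.33%). The median was −0.15, and −0.01 over the members above 5 CPM in either library. On the higher side stood CRMP1 and INA, the microtubule regulator STMN3 at 51.4 and 14.9 CPM, the synaptic vesicle protein SYP at 25.2 and 7.96 CPM and the neuronal enolase ENO2 at 13.7 and 4.50 CPM. On the lower side stood BEX1, NEFL and NEFM, the adhesion molecule NCAM1 at 12.5 and 34.3 CPM, SYT11 at 1.44 and 4.77 CPM and DPYSL3, a relative of CRMP1, at 1.78 and 4.70 CPM. The hydrolase UCHL1 was at 139 and 140 CPM.

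HOX genes, which set position along the body axis, were mostly somewhat higher in KO2. Of 34 kept members 26 were higher (76.5%, against 47.0% of all kept genes) and 8 lower, with a median of 0.34, and only HOXA10 was past 2-fold, at 98.3 CPM in KO2 and 48.1 CPM in the parental library. It overlaps HOXA10-AS on the other strand. By cluster, 6 of 6 HOXD genes, 7 of 8 HOXC genes and 9 of 11 HOXA genes were higher, with medians of 0.57, 0.53 and 0.33. The HOXB cluster held 4 higher and 5 lower, with a median of −0.01, and lies on chromosome 17 in a bin whose genes had a median of −0.32. Among 62 other developmental transcription factors 5 were past 2-fold higher (8.06%, against 0.971% of all kept genes). They were the pioneer factor FOXA1 at 25.4 and 8.54 CPM, OTX2 at 3.09 and 0.515 CPM, UNCX at 11.2 and 3.91 CPM, HES6 at 13.3 and 4.98 CPM and TFAP2A at 41.1 and 16.8 CPM. HAND1, a factor of heart and trophoblast, was the only member past 2-fold lower (1.61%, against 1.33%), at 5.03 and 13.3 CPM. In the kidney list SIX2 of the nephron progenitor was past 2-fold lower (9.09%, against 1.33%), at 7.04 and 24.1 CPM. The other 10 kept members of the kidney list were within 2-fold, and the list median was −0.25.

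In the BMP and TGF-beta list the members past 2-fold were the ligand BMP2, at 0.503 and 3.91 CPM, and the receptor TGFBR2, at 4.49 and 12.3 CPM, 2 of 38 kept members (5.26%, against 1.33% of all kept genes) with a median of −0.06; 0 were past 2-fold higher. The ligand TGFB1 was at 23.6 and 14.4 CPM, and the inhibitor SMAD7 at 14.6 and 10.1 CPM. In the Wnt list the secreted inhibitor SFRP1 was at 0.168 and 2.13 CPM, and RNF43, which removes Wnt receptors, at 4.90 and 11.3 CPM, 2 of 36 past 2-fold lower (5.56%) with a median of −0.13 and 0 past 2-fold higher. Among interferon-stimulated genes OAS3, a sensor of double-stranded RNA, was the only 1 of 20 past 2-fold (5%, lower in KO2), at 2.25 and 11 CPM.

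Most genes of cholesterol synthesis were higher in KO2, 1 of them past 2-fold. Of 24 kept members 23 were higher (95.8%, against 47.0% of all kept genes) and 1 lower, with a median of 0.43, and their summed level was 2229 CPM in KO2 and 1542 CPM in the parental library. The sterol sensor partner INSIG1 was past 2-fold at 207 and 94.4 CPM, 2.19-fold higher (2.09 to 2.29), and lies in a bin of chromosome 7 whose genes had a median of 0.36. HMGCS1, which makes HMG-CoA, was at 124 and 68.6 CPM. Later enzymes were on the same side: SQLE at 238 and 138 CPM, IDI1 at 119 and 71.4 CPM and TM7SF2 at 19.5 and 9.27 CPM. CYP51A1 was the lower member, at 10.0 and 10.5 CPM. The median with each gene's bin median taken out was 0.40.

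Fatty acid genes did not share that direction. Of 15 kept members 7 were higher and 8 lower, and 1 was past 2-fold each way (6.67%). Of all kept genes 0.971% were past 2-fold higher and 1.33% lower. The desaturase FADS2 was past 2-fold higher at 83.8 and 29.6 CPM, with an annotated span that overlaps FADS1 and FEN1, and ACSL4, which activates arachidonic acid, was past 2-fold lower at 47.4 and 104 CPM. FASN, the fatty acid synthase, was at 494 and 524 CPM. In the hypoxia and glycolysis list 22 of 28 kept members were lower and 6 higher (21.4%, against 47.0% of all kept genes), with a median of −0.12. The glucose transporter SLC2A3 was its only member past 2-fold lower (3.57%, against 1.33%), at 0.839 and 7.41 CPM. ENO2 was its only member past 2-fold higher (3.57%, against 0.971%). Heme oxygenase HMOX1 was at 9.09 and 29.3 CPM, the only 1 of 28 glutathione and xenobiotic genes past 2-fold (3.57%, against 1.33% lower). Of 27 p53 targets 18 were higher (66.7%, against 47.0%), with a median of 0.15. BBC3 (PUMA), an inducer of apoptosis, alone was past 2-fold (3.70%, against 0.971%), at 10.3 and 4.43 CPM. Beside DDIT4 (4.35%, against 0.971%), 0 of the 22 other kept genes of the integrated stress response list were past 2-fold. ASNS was at 94.0 and 75.9 CPM.

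The listed genes that handle histone H3 were within 2-fold, as were most kept genes. Of 34 kept histone chaperones and assembly factors 0 were past 2-fold, beside 0.971% of all kept genes higher and 1.33% lower. A count of 0 in a list of this size is near those shares. By any amount 21 were higher (61.8%, against 47.0% of all kept genes) and 13 lower, and the median was 0.04. NASP was at 323 CPM in KO2 and 301 CPM in the parental library. ASF1A was at 31.9 and 30.7 CPM, and CHAF1A, the large subunit of CAF-1, at 132 and 129 CPM. The paralog of ASF1A that follows the cell cycle, ASF1B, was at 72.3 and 50.3 CPM, 1.44-fold higher (1.34 to 1.54). HIRA was at 23.8 and 16.1 CPM, 1.48-fold higher (1.31 to 1.66), in a bin of chromosome 22 whose genes had a median of 0.27. The lowest difference of the list was that of SUPT6H, an elongation factor that binds H3 and H4, at 106 and 191 CPM on chromosome 17.

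UBR box and N-degron genes were also within 2-fold. Of 12 kept, 10 were lower by any amount and 2 higher (16.7%, against 47.0% of all kept genes). The median was −0.14, or −0.04 with the bin medians taken out. UBR1 was at 43.6 and 53.4 CPM and UBR4 at 120 and 131 CPM, and of the higher members UBR2 was at 67.6 and 56.3 CPM. Of 38 kept replication-dependent histone genes 29 were higher by any amount (76.3%, against 47.0% of all kept genes), with a median of 0.17. The only listed members past 2-fold were lower, HIST1H2BG and HIST1H2AE (5.26%, against 1.33%), and 0 were past 2-fold higher. The list does not hold every such gene: HIST1H3J, past 2-fold higher at 96.4 and 10.8 CPM and uncertain as said above, is not in it. Most of the list lies on chromosome 6 between 10 and 40 Mb, where 209 of 263 kept genes were higher, the listed histone genes included. With the bin medians taken out the list median was −0.01. Those bin medians include the list's own members, which draws the result toward 0, so list and region are not separated by it. HIST1H1E was at 1756 and 1279 CPM and HIST1H3B at 561 and 447 CPM. Of the genes for the variant H3.3, H3F3A was at 71.6 and 71.5 CPM and H3F3B at 278 and 373 CPM. Of all kept genes 0.971% were past 2-fold higher and 1.33% lower. No member of the lists of H3K4 methylation (26 kept), H3K9 methylation and heterochromatin (27), Polycomb (30), DNA replication (44) or mitosis (33) was past 2-fold. Their medians lay between −0.10 and 0.03, beside −0.02 over all kept genes.

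**Figure D3:**
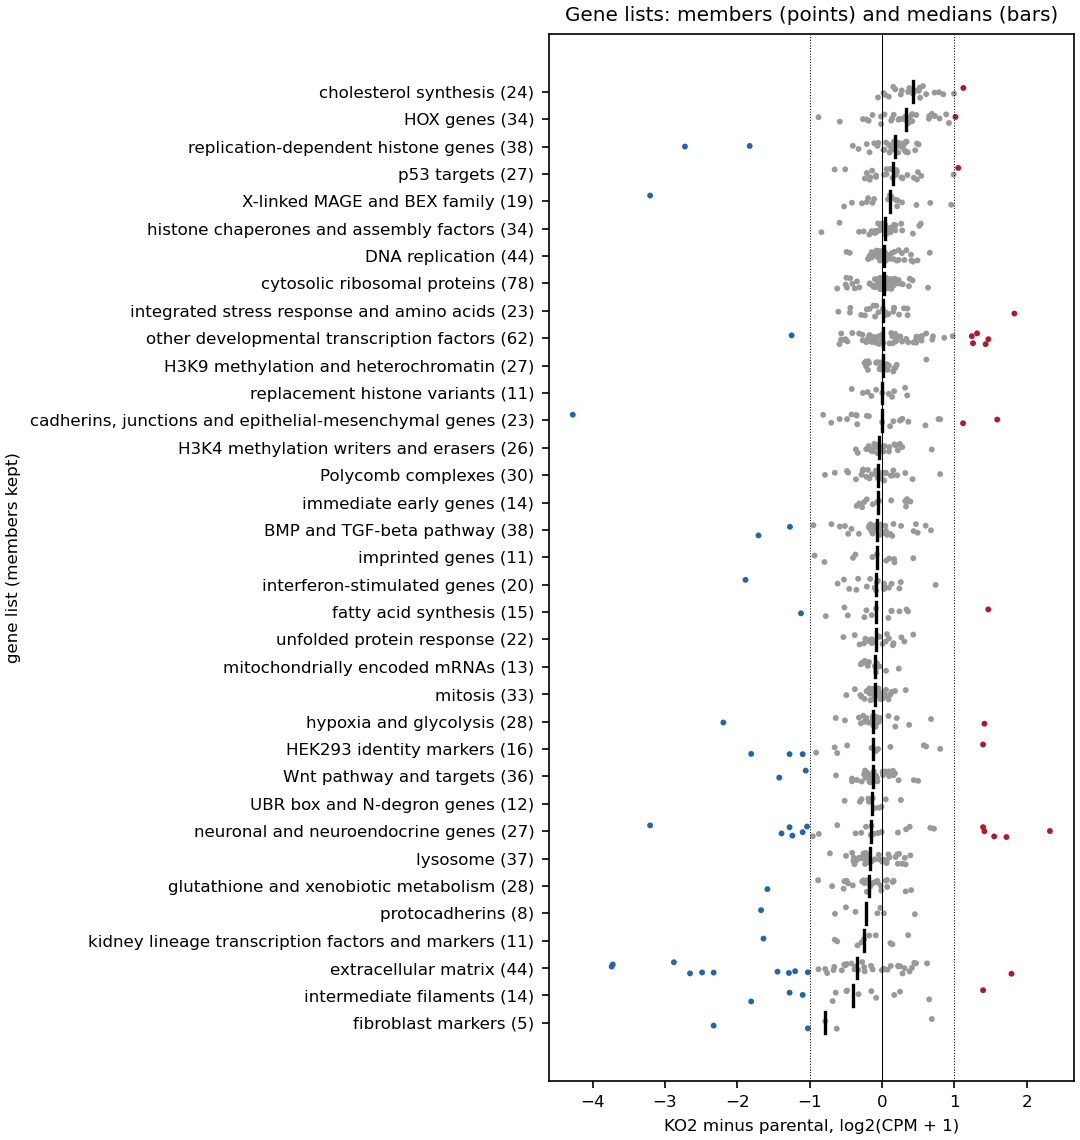
KO2 minus parental difference in log2(CPM + 1) of each kept member (points) of the 35 lists with at least 5 kept members, with the list median as a bar and dotted lines at 2-fold; red and blue points are past 2-fold higher and lower. Cholesterol synthesis has the highest median (0.43) with its members close together, and extracellular matrix has a median of −0.35 with 10 points past the lower line. Lower medians belong to the fibroblast list (−0.79, 5 members) and intermediate filaments (−0.40, 14 members).

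Some differences followed chromosomes rather than pathways. Genes were put in bins of 10 Mb, and 273 bins held 15 or more kept genes. In 32 of them the median difference was 0.2 or more either way, and 5 runs of at least 3 adjacent bins on 1 side were found. On chromosome 2 from 0 to 90 Mb, 323 of 362 kept genes (89.2%) were lower in KO2, with a median of −0.40. On chromosome 17 from 10 to 90 Mb, 563 of 659 (85.4%) were lower, with a median of −0.36. On chromosome 13 from 90 to 120 Mb, 56 of 64 (87.5%) were higher, with a median of 0.37. Chromosome 6 was higher from 10 to 40 Mb, where the histone genes lie (209 of 263, median 0.22), and from 70 to 100 Mb (68 of 84, median 0.29).

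The 5 runs held 1432 kept genes (10.8%), with 13 of the 129 past 2-fold higher (10.1%) and 25 of the 177 past 2-fold lower (14.1%). Outside the runs the median was −0.01. With each gene's bin median taken out, 134 genes were past 2-fold higher and 161 lower. SIX2 lies in the chromosome 2 run and SUPT6H and RNF43 in that of chromosome 17. A different number of copies of these regions in the 2 cell stocks was not tested, and it cannot be told apart from other regional differences in RNA alone.

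**Figure D4:**
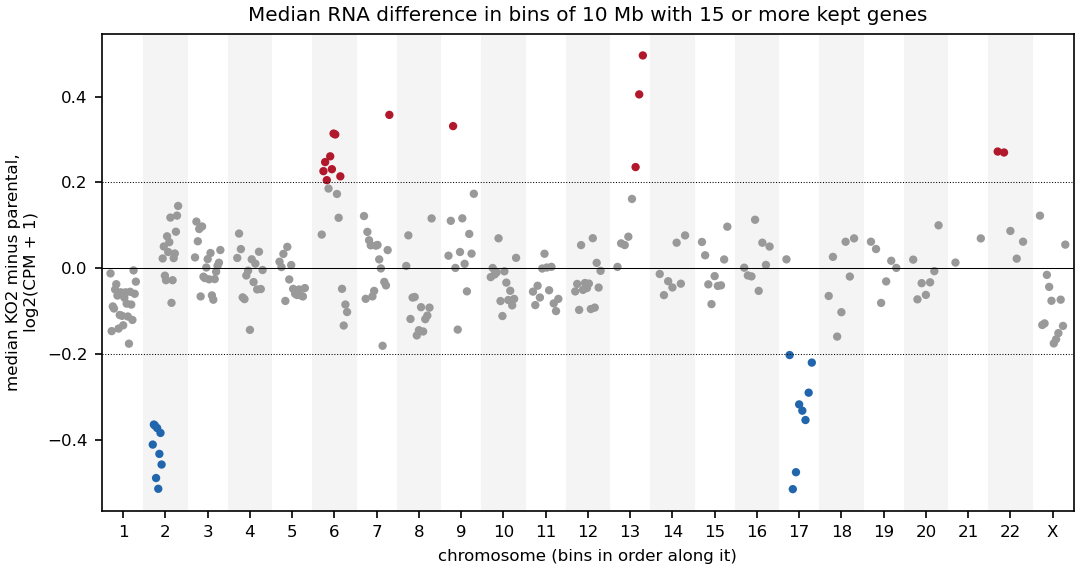
Median KO2 minus parental difference in log2(CPM + 1) of the kept genes in each bin of 10 Mb, in order within each chromosome, with dotted lines at 0.2 either way. Of the 273 bins, the mitochondrial one is not drawn. The first 9 bins of chromosome 2 and 8 bins of chromosome 17 lie below the lower line, and bins of chromosomes 6, 7, 9, 13 and 22 lie above the upper line.

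A gene start was counted as open in an ATAC library where a broad peak of that library lay within 1 kb. The libraries differ in their number of peaks, 15310 and 45920 in UBR7KO replicates 1 and 2 and 10507 and 38529 in parental replicates 1 and 2, and the parental library has fewer in each. Of kept gene starts 71.4% and 84.1% had a peak in UBR7KO and 56.3% and 81.8% in parental cells. Many peaks are weak: the median −log10 q was 1.22 and 1.87 in UBR7KO and 1.07 and 1.33 in parental cells. All 4 libraries had a peak at 7131 starts (53.7%) and none at 1912 (14.4%).

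Among genes past 2-fold in RNA, a smaller share had peaks in every library, in both directions, which is a count with no test. Peaks in all 4 libraries were found at 22.5% of genes past 2-fold higher, 18.1% of those lower and 54.5% of the rest. Peaks in none were found at 28.7%, 29.9% and 14.0%. RNA levels differ between these sets as well, with a mean under 5 CPM for 51 of the 129, 84 of the 177 and 2727 of the rest, so the shares are also given by level. Between 5 and 20 CPM, starts with peaks in all 4 made up 21.7% of 46 higher genes, 15.6% of 64 lower genes and 50.8% of 3289 others. Between 20 and 100 CPM they made up 37.9% of 29, 20.0% of 25 and 63.2% of 5305. Under 5 CPM they made up 11.8%, 17.9% and 33.3%. Peaks in none were found under 5 CPM at 27.5% of higher genes, 34.5% of lower genes and 30.3% of others, so that contrast was not seen at this level. These shares were 32.6%, 28.1% and 12.5% between 5 and 20 CPM, and 27.6%, 24.0% and 8.54% between 20 and 100 CPM.

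Where peaks were called in UBR7KO alone, RNA was past 2-fold higher at some starts and past 2-fold lower at none. Peaks in both UBR7KO libraries and in neither parental library were found at 99 starts (0.745% of kept genes). Of these, 12 genes were past 2-fold higher (12.1%, against 0.971% of all kept genes) and 0 past 2-fold lower, 66 were higher by any amount, and the median was 0.10. Those 12 include KIF1A, LYPD1, ZNF22, ZNF700, MARVELD2, FAM20C, PNMA2, ZNF287, GALC, CXCL12 and ZNF44. At KIF1A the peaks had a −log10 q of 5.50 (chr2:241759564-241759979) and 1.59 (chr2:241759185-241760218), and both cover the gene start at 241759725. At ZNF22 they had 4.81 (chr10:45496231-45496569) and 1.57 (chr10:45496316-45497212), inside the gene. C10orf25, which starts within reach of the same peaks, was at 1.31 and 0.240 CPM. At ZNF700 they had 1.11 (chr19:12035639-12036409) and 1.35 (chr19:12035585-12035983), and at LYPD1 the highest were 1.18 (chr2:133428255-133428467) and 2.1 (chr2:133427099-133428685).

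The highest values of the 12 were those of ZNF44, 0.918 and 8.56, and FAM20C, 0.758 and 6.66, while ZNF287 had 0.776 and 0.978. FAM20C, a kinase of secreted proteins, was at 5.50 CPM in KO2 and 1.30 CPM in the parental library. PNMA2 was at 16.9 and 5.56 CPM; its neighbour DPYSL2, which starts within reach of the same peaks, was at 52.3 and 56.9 CPM. GALC, a lysosomal enzyme that degrades galactolipids, was at 3.62 and 0.824 CPM and the chemokine CXCL12 at 1.78 and 0.240 CPM. The count rests on weak peaks: no start of this class had a −log10 q of at least 5 in both UBR7KO libraries. With that value required of every peak, the class was made up of 30 other starts, whose parental peaks were weaker and dropped out. Of these 30, 0 were past 2-fold higher. With an equal number of top-ranked peaks taken from each library, 49 starts were in the class, with 6 past 2-fold higher (12.2%) and 0 lower. With a window of 250 bases 137 starts were in the class, with 8 past 2-fold higher (5.84%). With 1 replicate left out the share past 2-fold higher was 5.44% without replicate 1 and 1.45% without replicate 2, beside 1.76% and 1.5% of starts with peaks in parental cells alone.

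The reverse class was small. Peaks in both parental libraries and in neither UBR7KO library were found at 8 starts (0.0602%), and 0 of these genes were past 2-fold either way. RNA was lower in KO2 at 7 of the 8, with a median of −0.38: SYTL4 was at 5.67 and 9.61 CPM, FRMD4B at 8.22 and 12.1 CPM, RPL23 at 451 and 639 CPM, ZNF830 at 16.3 and 22.3 CPM and SRCIN1 at 2.48 and 3.40 CPM. RPL23, ZNF830 and SRCIN1 lie in the chromosome 17 run. PI4K2A, at 21.7 and 20.6 CPM, was the higher member.

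Of the 177 genes past 2-fold lower, 53 (29.9%) had no peak in any library, HIST1H2BG among them. SNAI2 had peaks in both UBR7KO libraries, with a −log10 q of 2.93 and 2.57, and in parental replicate 2, with 1.99, although its RNA was 24.8-fold lower in KO2. TNC had 15.3 in UBR7KO replicate 2, and 2.98 and 2.71 in the parental libraries. DDR2 had 0.455 in UBR7KO replicate 2 and 3.54 in parental replicate 2. SPARC, COL5A2 and BEX1 had a peak in parental replicate 2 alone, with 1.08, 1.25 and 0.568. In replicate 2, with more peaks, a peak in UBR7KO alone was found at 26 higher genes (20.2%), 12 lower genes (6.78%) and 3.39% of the rest. A peak in parental alone was found there at 3 higher genes (2.33%), 14 lower genes (7.91%) and 1.18% of the rest. In replicate 1, with fewer peaks, a peak in UBR7KO alone was found at 34 higher genes (26.4%), 19 lower genes (10.7%) and 17.6% of the rest, so the lower genes lay above the rest in replicate 2 and below it in replicate 1. A peak in parental alone was found there at 5 higher genes (3.88%), 17 lower genes (9.60%) and 2.40% of the rest.

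**Figure D5:**
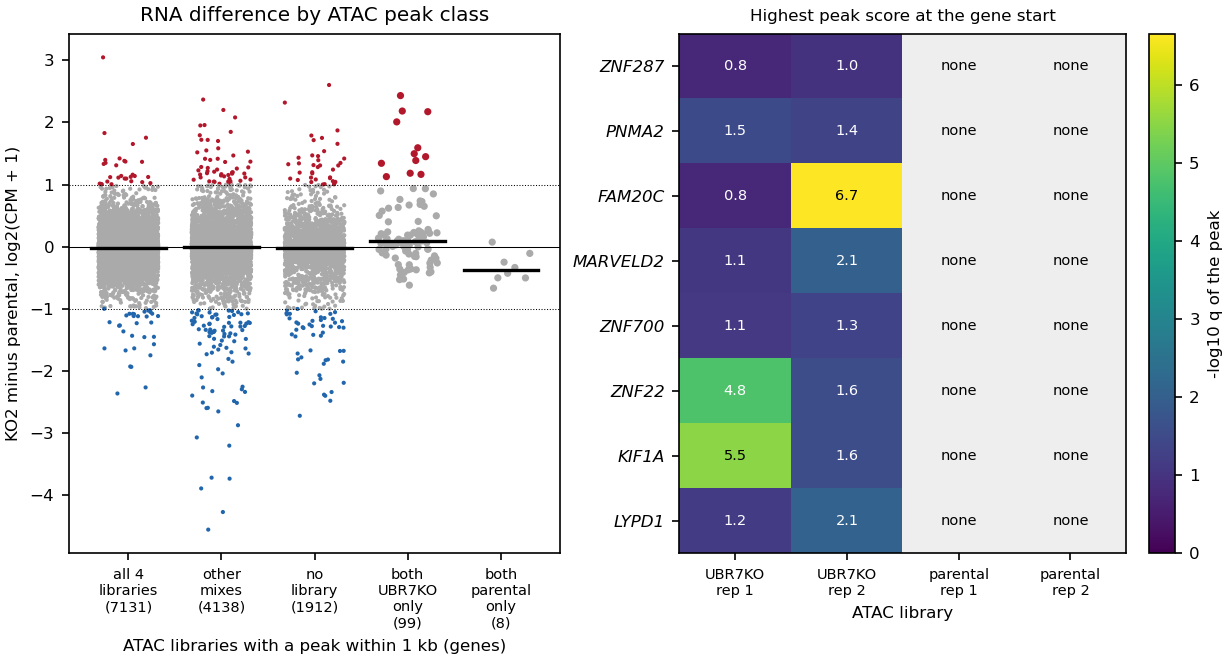
Left, KO2 minus parental difference in log2(CPM + 1) of each kept gene by the ATAC libraries with a peak within 1 kb of its start, with medians as bars and dotted lines at 2-fold. Right, −log10 q of the highest such peak in each library for the 8 genes with the largest difference among the 12 past 2-fold higher with peaks in both UBR7KO libraries only; in the left panel that class of 99 starts has 12 red points and no blue one.

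Chromosomal sites of UBR7 itself were read from the GFP-UBR7 peak list. A GFP-UBR7 peak lay within 1 kb of 3334 kept gene starts (25.1%). It did so at 27 of the 129 genes past 2-fold higher (20.9%), at 15 of the 177 past 2-fold lower (8.47%) and at 25.4% of the rest. The lower genes had the smallest share at each mean level: 8.33%, 7.81% and 8.00% under 5, from 5 to 20 and from 20 to 100 CPM, beside 16.5%, 24.1% and 29.0% of the rest, and 1 of 4 genes above 100 CPM. KIF1A, DUSP2, FOXB1 and DDIT4 had such a peak among the 15 highest genes, and ADAMTS1 and HIST1H2BG among the 15 lowest. UBR7, SNAI2, DDR2 and SPARC had none. The list comes from 1 ChIP library, and what share of its peaks another would call is unknown.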

How the data were processed

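TruSeq LS libraries were prepared from column-purified RNA, per the labels' protocols. Among tools without a stated role, MACS2, HTSeq 0.6.1, TopHat2 2.1.0 and Bowtie2 2.3.1 are listed in the submitters' processing notes. The deposited RNA values are CPM, made by the authors from reads per gene with no other scaling visible; 100% of values in both libraries were whole multiples of the value of 1 read (tolerance 1e-06), which gave whole reads. Of ATAC, the deposited broad peak lists hold a −log10 q per peak, and the authors called each library separately. The score columns of the authors' 2 replicate-intersected ATAC sets and of their GFP-UBR7 peak list were not used, only the positions. Gene positions are those of the deposited table and are of GRCh37 type. The strand setting of the counting is not given in the sources used here.

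Differences are log2(CPM + 1) of KO2 minus parental, for genes above 1 CPM in either library. Lists with fewer than 5 kept members (5 of 40) were given no median. The named genes were UBR7, the 15 largest differences each way, up to 3 members per list past 2-fold or else its most expressed, genes past 2-fold with ATAC peaks on 1 side (up to 8 each way), and NASP, ASF1A, ASF1B, CHAF1A and HIRA. Members and lists were chosen with earlier results of these data known. A table of gene starts with cluster labels was not used, and the other 4 RNA libraries and the CUT&RUN samples were not analysed here. The scripts were tested on simulated data. Work was done in Python 3.11.15 (pandas 2.3.3, numpy 2.4.6, scipy 1.17.1, matplotlib 3.10.9). Some genes are not reported here.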

Additional observations from a re-analysis of the deposited data

How the results depend on the processing

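With 1 RNA library a side there is no test to depend on the processing, and a count model such as edgeR has no residual degrees of freedom. No paired analysis was possible because each side has 1 RNA library. The number of genes past 2-fold moved with the pseudocount: 262 higher and 321 lower with 0.1, and 38 and 64 with 5; at 4-fold it was 10 and 34. Without the mitochondrial rRNAs it was 175 and 196, and centred on the median 141 and 174. All 60 named genes past 2-fold kept their direction in every alternative in which they had a value; 44 stayed past 2-fold with a pseudocount of 5 and 56 with the bin medians taken out. The HOX median was 0.23 with a pseudocount of 5. The median of replication-dependent histone genes changed sign, to −0.0106, with the bin medians taken out, and that of immediate early genes to 0.09. RPS4X, within 1.01-fold, turned to 0.02, 0.01 and 0.16 without mitochondrial rRNAs, centred, and with its bin median taken out.

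The ATAC classes moved most. Starts with peaks in UBR7KO alone numbered 30 with a −log10 q of at least 5, 49 with equal numbers of top-ranked peaks, 2314 with the authors' intersected sets and 478 to 2343 with 1 replicate left out. Of these, 0, 6, 34 and 26 to 34 genes were past 2-fold higher, and 0, 0, 17 and 12 to 19 past 2-fold lower; with a window of 250 bases there were 137 starts, 8 higher (5.84%) and 1 lower. Starts with peaks in parental cells alone numbered 17 with a window of 250 bases, 113 with equal numbers, 303 with the intersected sets and 170 to 334 with 1 replicate left out. Of these, 0, 1, 4 and 3 to 5 were past 2-fold higher and 1, 2, 15 and 14 to 17 past 2-fold lower. The share past 2-fold higher at starts open in UBR7KO alone and in parental cells alone was 5.44% and 1.76% without replicate 1, 1.45% and 1.5% without replicate 2, and 1.47% and 1.32% with the intersected sets; the share past 2-fold lower was 2.51% and 8.24%, 0.811% and 5.09%, and 0.735% and 4.95%. Apart from what the settings themselves remove (peaks, replicates), the cause was not tested.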

Other observations

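In the lists of this paragraph 0 members were past 2-fold, beside 0.971% of all kept genes higher and 1.33% lower. By any amount 47.0% of all kept genes were higher. Of 78 cytosolic ribosomal protein genes 45 were higher in KO2 and 0 past 2-fold, with a median of 0.03. The 13 mitochondrially encoded mRNAs had a median of −0.10, with 11 lower, while the mitochondrial rRNAs were both higher. Lysosomal genes had a median of −0.16, with 23 of 37 lower and 0 past 2-fold; PSAP, a precursor of sphingolipid activators, was at 210 CPM in KO2 and 201 CPM in the parental library. Genes of the unfolded protein response had a median of −0.09, with 13 of 22 lower, and the calnexin gene CANX was at 1172 and 1310 CPM. Of 14 kept immediate early genes 8 were lower and 0 past 2-fold, with a median of −0.05 that turned to 0.09 with the bin medians taken out.

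Families that are often silent by region were mixed. Of 19 kept genes of the X-linked MAGE and BEX list 11 were higher, with a median of 0.11, although BEX1 was the lowest. Of 8 kept protocadherins 6 were lower, and PCDH19 was past 2-fold lower at 0.939 and 5.18 CPM. Imprinted genes had a median of −0.07 over 11 kept members, with 0 past 2-fold. PRAME, the cancer-testis antigen kept, was at 27.4 and 52.5 CPM. Replacement histone variants had a median of 0.00 over 11 kept members.

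The midline gene MID1, chosen after its value was seen, was at 21.0 CPM in KO2 and 93.9 CPM in the parental library, with an ATAC peak at its start in parental replicate 2 alone.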
